A study of Mus musculus with 4 samples.

Results

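The bone morphogenetic protein (BMP) pathway was followed through 10 genes in mouse bone marrow-derived mesenchymal stem/progenitor cells (mBMSCs): the ID genes Id1, Id2, Id3 and Id4, the receptors Bmpr1a and Bmpr2, the receptor-activated SMADs Smad1 and Smad5, and the inhibitory SMADs Smad6 and Smad7. They were taken by gene symbol from an expression table of 24346 genes, in which all 10 had a row. RNA-seq was performed on 4 samples. Control mBMSCs were transfected with scrambled siRNA (siScr, n = 2) and ZBP1-depleted mBMSCs with siRNA against Zbp1 (siZBP1, n = 2), and RNA was collected 72 h later. Both groups were primary adherent marrow cells of C57BL/6 mice (C57BL/6J in the methods) aged 3 months, transfected with the same reagent. Which siRNA against Zbp1 was used, and whether marrow of several animals was pooled, is not stated. Nothing states that the 2 samples of a group came from separate cultures or animals, so that p-values measure the spread between these samples, which may be technical.

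BMP ligands bind paired type I and type II receptor kinases such as BMPR1A and BMPR2. The activated type I receptor phosphorylates SMAD1 and SMAD5, which enter the nucleus with SMAD4 and switch on early target genes, among them the ID genes and Smad6 and Smad7, whose products dampen the pathway in a feedback loop. ID proteins have a helix-loop-helix but no basic DNA-binding region, and they hold E proteins and other basic helix-loop-helix (bHLH) factors away from DNA. In marrow stromal cells BMP signalling is best known for promoting osteoblast differentiation.

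Expression is given as FPKM (the number of fragments scaled to transcript length and to the mapped fragments of the sample), a level that can be compared between genes. The knockdown was visible in the table. Zbp1, which encodes a sensor of Z-form nucleic acid, was at 86.0 and 62.0 FPKM in the siScr samples and at 11.5 and 11.6 FPKM in the siZBP1 samples, a 6.4-fold lower mean (log2 fold change −2.56, SE 0.16, adjusted p = 0.00322 by limma). Differences between groups were tested with limma on log2(FPKM + 1) in all 11959 genes that averaged at least 1 FPKM, and p-values were adjusted over these genes with a threshold of 0.05. Log2 fold changes are siZBP1 minus siScr on this scale, which understates the change of genes with low FPKM. For 1 gene alone, 2 samples per group allow no two-sided p below 0.333 in an exact permutation test, and the adjusted p-values draw on the variance of all genes. Read numbers are not given, and the spacing of the lowest values put the depth at roughly 11 to 20 M fragments per sample.

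Of the 10 genes, Smad6, Id4 and Id3 fell, Bmpr2 rose, and Id1, Id2, Smad7, Bmpr1a, Smad1 and Smad5 did not pass the test. Among all genes tested, 14.8% were lower and 13.5% were higher in ZBP1-depleted cells, 28.3% in either direction. The counts of 3 lower and 1 higher among 10 genes stand beside these shares. The 10 genes had a median log2 fold change of −0.21, against 0.00 over all genes tested. The plot of the 10 genes by sample shows that Id2 and Id3 were expressed far above the others and Id4 far below them.

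**Figure D1:**
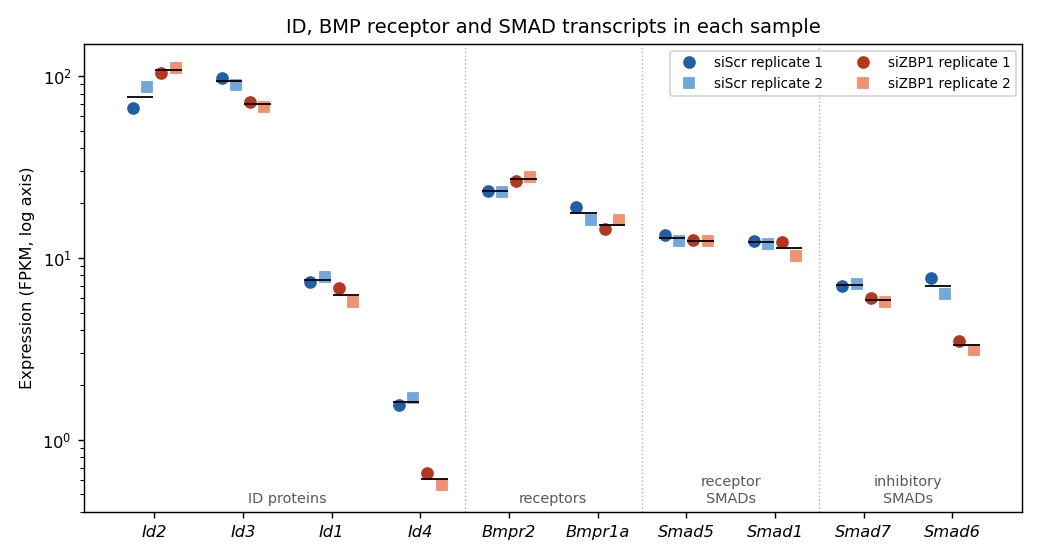
FPKM of the 10 genes in each of the 4 samples on a log axis, with dotted lines between the gene families. Points are samples and horizontal bars are group means (n = 2). Smad6, Id3, Id4, Id1, Smad7 and Bmpr1a are lower in both siZBP1 samples than in both siScr samples, and Bmpr2 and Id2 are higher in both. Of these, Id1, Smad7, Bmpr1a and Id2 did not pass the test.

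On the log2(FPKM + 1) scale the largest change was in Smad6, which encodes the inhibitory SMAD that acts mainly on BMP receptors and SMAD1. Smad6 was at 7.74 and 6.29 FPKM in the siScr samples and at 3.49 and 3.11 FPKM in the siZBP1 samples. Both siZBP1 values lay below both siScr values, and the gap between the groups was wider than the spread within either. The mean fell from 7.02 ± 1.03 to 3.30 ± 0.265 FPKM (SD, n = 2), a 2.13-fold lower level (log2 fold change −0.89, SE 0.12, 95% interval −1.22 to −0.57, adjusted p = 0.0113 by limma). As a ratio of means the fall of Id4 was larger. The size of the log2 fold change of Smad6 exceeded that of 95% of all genes tested. With a single siZBP1 sample in the fit the adjusted p was 0.0924 (without replicate 1) and 0.0891 (without replicate 2), and it passed without either siScr sample.

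Smad7 encodes the other inhibitory SMAD, which acts on both the BMP and the TGF-β branch. Its levels were 6.96 and 7.13 FPKM in the siScr samples and 5.98 and 5.74 FPKM in the siZBP1 samples. The groups did not overlap, and the difference was much smaller than that of Smad6. The log2 fold change of −0.23 (SE 0.07, 95% interval −0.42 to −0.04, which is not adjusted for the number of genes) did not pass the test (adjusted p = 0.0762 by limma). In the siScr samples the level of Smad6 was 1.11 and 0.882 times that of Smad7, so that neither inhibitor exceeded the other in both samples. In the siZBP1 samples the ratio was 0.583 and 0.542, with Smad7 the more abundant in both. The summed level of both inhibitory SMADs was 14.7 and 13.4 FPKM in the siScr samples and 9.46 and 8.85 FPKM in the siZBP1 samples, 0.651 times as high on average. This sum was not tested.

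The promoter of Smad6 is shown because it holds the letters of the palindromic SMAD-binding element next to its start site. Few promoters held this sequence at any position searched. Smad6 spans 63953076 to 64022059 of chromosome 9 (GRCm38, minus strand). Promoters of 300 bases, from 250 bases before to 50 bases after the annotated start, were read from RefSeq (GRCm38.p6) for the 8 genes with an entry, 10 promoters in all, and searched on both strands for 3 sequences. GTCTAGAC, the palindromic SMAD-binding element, was present in 0.213% of the 32851 promoters of the table. GGCGCC, a GC-rich element that BMP-activated SMADs can bind, was present in 11.9%, and GGAGCC, which differs from it by 1 base, in 30.8%. The Smad6 promoter held GTCTAGAC at position −4 from the start and GGAGCC at −102 and −18, shown here in capitals, 5′ to 3′ on the minus strand, at chr9:64022049-64022072, chr9:64022147-64022170 and chr9:64022063-64022086 in this order.
Smad6, GTCTAGAC: cgccaaagtGTCTAGACtggcata
Smad6, GGAGCC: agccccctcGGAGCCtcgggctca
Smad6, GGAGCC: cagcgccgcGGAGCCgccaaagtg
Smad6 was the only gene of those searched with GTCTAGAC in this window, and the promoters of Id1 and Smad7 were not searched. A match of letters is a description of the sequence and was not examined for binding.

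The 4 genes whose pattern over the 4 samples was most like that of Smad6 were Scarf2, Plcd1, Ppfibp2 and Nmrk1. Likeness was measured as the Euclidean distance in log2(FPKM + 1) after centring each gene on its siScr mean, and the distances were 0.0234 for Scarf2, 0.0276 for Plcd1, 0.0373 for Ppfibp2 and 0.0491 for Nmrk1. Plcd1, a phospholipase C, was at 8.73 and 7.32 FPKM in the siScr samples and at 4.09 and 3.62 FPKM in the siZBP1 samples, close to the levels of Smad6 itself. Scarf2, a scavenger receptor family member, was at 20.4 and 16.5 FPKM in siScr and at 9.90 and 9.02 FPKM in siZBP1 samples. This is a description over 4 samples, and genes this close are found by searching all genes tested.

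Among the ID genes, Id3 and Id4 fell, and Id2, at a higher level in both siZBP1 samples, and Id1 did not pass. Id3 was at 97.9 and 88.9 FPKM in the siScr samples and at 72.2 and 67.2 FPKM in the siZBP1 samples. Every siZBP1 value was below every siScr value. The mean fell from 93.4 ± 6.35 to 69.7 ± 3.52 FPKM (SD, n = 2), a 1.34-fold lower level (log2 fold change −0.42, SE 0.07, 95% interval −0.59 to −0.24, adjusted p = 0.0165 by limma). The adjusted p was 0.0575 without siScr replicate 1, 0.0997 without siZBP1 replicate 1 and 0.109 without siZBP1 replicate 2, and the log2 fold change stayed between −0.48 and −0.35 in all 15 alternative settings.

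Id4, the least abundant ID gene, was at 1.55 and 1.69 FPKM in the siScr samples and at 0.657 and 0.560 FPKM in the siZBP1 samples. The mean was 1.62 ± 0.0933 in siScr and 0.608 ± 0.0684 FPKM in siZBP1 samples (SD, n = 2), 2.66-fold lower (log2 fold change −0.70, SE 0.13, 95% interval −1.05 to −0.36, adjusted p = 0.0220 by limma). Id4 passed the filter of 1 FPKM with a mean of 1.11 only through the siScr samples, so that a gene this low in the siZBP1 samples was tested only because it was higher in the siScr samples. Without the filter, when all genes with a mean above 0 were fitted, its adjusted p was 0.0176. Its values rest on the fewest fragments of the 10 genes, by a rough estimate 87 and 130 in the siScr samples and 27 and 39 in the siZBP1 samples. Without siZBP1 replicate 1 or 2 the adjusted p was 0.103 and 0.104, and without either siScr sample Id4 was below the filter.

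Id2 had the opposite sign. Its levels were 66.8 and 86.5 FPKM in the siScr samples and 104.5 and 110.5 FPKM in the siZBP1 samples, so that both siZBP1 samples were above both siScr samples. The mean was 76.7 ± 13.9 in siScr and 107.5 ± 4.25 FPKM in siZBP1 samples (SD, n = 2), a ratio of 1.40 (log2 fold change 0.49, SE 0.13, 95% interval 0.15 to 0.83), and the adjusted p of 0.0508 by limma just missed the threshold. The siScr samples differed from each other by 0.37 on the log2 scale, the widest gap within a group among the 10 genes. Without siScr replicate 2 the log2 fold change was 0.68 and the adjusted p 0.0146. When siScr replicate 1 was left out instead, Id2 had a log2 fold change of 0.31 and an adjusted p of 0.0543. Leaving out siZBP1 replicate 1 or 2 gave an adjusted p of 0.193 and 0.214. Id2 was past the threshold in 5 of the 11 alternative settings that used all samples.

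Id1 was at 7.37 and 7.81 FPKM in the siScr samples and at 6.85 and 5.68 FPKM in the siZBP1 samples. The groups did not overlap, but the siZBP1 samples differed from each other by more than their upper value differed from the controls. The log2 fold change of −0.25 (SE 0.10, 95% interval −0.52 to 0.03) did not pass (adjusted p = 0.151 by limma), and it was −0.13 without siZBP1 replicate 2.

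The summed level of the ID genes overlapped between the groups. The 4 ID genes together were at 173.6 and 184.9 FPKM in the siScr samples and at 184.2 and 184.0 FPKM in the siZBP1 samples, a ratio of means of 1.03, and the siZBP1 values lay between the siScr values. The composition of this sum was different, as the plot of ID shares shows. Id3 made up 56.4% and 48.1% of the summed ID level in the siScr samples and 39.2% and 36.5% in the siZBP1 samples. Id2 made up 38.5% and 46.8% in the siScr samples and 56.7% and 60.1% in the siZBP1 samples. Id3 was thus the most abundant ID gene in both siScr samples, at 1.46 and 1.03 times the level of Id2, and Id2 was the most abundant in both siZBP1 samples, where the Id3 to Id2 ratio was 0.691 and 0.608. The order in siScr replicate 2 rests on nearly equal levels. Id1 contributed 4.25% and 4.23% in siScr and 3.72% and 3.09% in siZBP1 samples, and Id4 contributed under 1% in every sample. Shares and ratios were not tested.

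**Figure D2:**
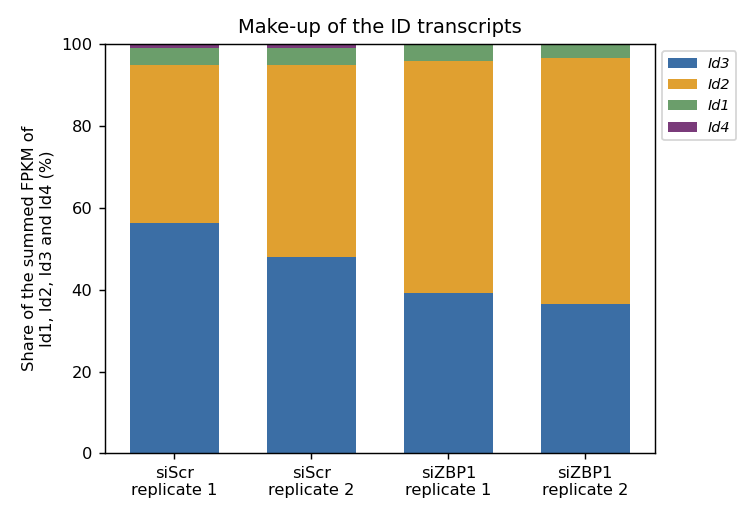
Share of each ID gene in the summed FPKM of Id1, Id2, Id3 and Id4, in percent, for each of the 4 samples. Id3 holds the largest share in both siScr samples (56.4% and 48.1%) and Id2 in both siZBP1 samples (56.7% and 60.1%).

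Promoter windows of the ID genes are given to set beside that of Smad6. Id2 lies on chromosome 12 (25093799 to 25097140, minus strand), Id3 on chromosome 4 (136143497 to 136145755, plus strand) and Id4 on chromosome 13 (48261228 to 48266026, plus strand) of GRCm38. The RefSeq promoter of Id2 held GGCGCC at −231 (chr12:25096309-25096332) and GGAGCC at −88 (chr12:25096166-25096189), that of Id4 held GGCGCC at −148 (chr13:48260959-48260982) and GGAGCC at −13 (chr13:48261094-48261117), and that of Id3 held GGAGCC on the opposite strand at −187 (chr4:136143626-136143649). Positions are counted from the RefSeq start, which differs from the start of the gene span in some genes. The promoters of Id2, Id3, Bmpr2 and Bmpr1a, and that of Smad5 with GGAGCC, lay inside the gene span. Matches in them thus stand after the start of that span. Each window is printed along the strand of its gene with the match in capitals.
Id2, GGCGCC: ggccccctgGGCGCCcagcgcaca
Id2, GGAGCC: tgatggacgGGAGCCcttccacca
Id4, GGCGCC: gggttgcccGGCGCCccgccctcg
Id4, GGAGCC: tgctgtgccGGAGCCgagcgacgc
Id3, GGAGCC read as GGCTCC: cgcatccgaGGCTCCgctgtcctc
The promoters of Bmpr2, Bmpr1a and Smad5 also held GGCGCC, and one of Smad5 held GGAGCC, whereas that of Smad1 held none of the 3 sequences. The genes with GGCGCC thus included Id4, which fell, Bmpr2, which rose, and Id2, Bmpr1a and Smad5, which did not pass. Smad6 and Id3, which fell, held GGAGCC but not GGCGCC. All 10 promoters were rich in G and C, at 59.3% to 79.3% against a median of 52.7% over the table, and held 19 to 48 CpG dinucleotides against a median of 7, so that GC-rich letters are more likely to occur in them.

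The receptors showed a small rise of the type II receptor. Bmpr2 was at 23.3 and 23.1 FPKM in the siScr samples and at 26.4 and 27.9 FPKM in the siZBP1 samples, with a gap between the groups wider than the spread within them. The mean rose from 23.2 ± 0.133 to 27.2 ± 1.11 FPKM (SD, n = 2), 1.17-fold (log2 fold change 0.22, SE 0.05, 95% interval 0.08 to 0.35, adjusted p = 0.0400 by limma). This call was the least steady of the 4. The adjusted p was 0.0507 without a filter on low values, 0.0696 without the variance trend and 0.0585 with the replicate number as a block, and between 0.101 and 0.195 without any 1 of the 4 samples.

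Bmpr1a, the type I receptor, was at 19.1 and 16.2 FPKM in the siScr samples and at 14.4 and 16.1 FPKM in the siZBP1 samples. The upper siZBP1 value nearly reached the lower siScr value. The log2 fold change of −0.20 (SE 0.10, 95% interval −0.47 to 0.08) did not pass (adjusted p = 0.225 by limma). It was −0.08 without siScr replicate 1, −0.31 without siScr replicate 2 and −0.12 without siZBP1 replicate 1. The level of Bmpr2 was 1.22 and 1.43 times that of Bmpr1a in the siScr samples and 1.83 and 1.74 times in the siZBP1 samples, a ratio that was higher in both depleted samples and was not tested. Their summed level was 42.4 and 39.3 FPKM in siScr and 40.7 and 44.0 FPKM in siZBP1 samples, and the groups overlapped.

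Smad1 and Smad5, the SMADs among the 10 genes that carry the signal, showed no difference past the spread. Smad1 was at 12.4 and 11.9 FPKM in the siScr samples and at 12.3 and 10.2 FPKM in the siZBP1 samples (log2 fold change −0.11, SE 0.10, 95% interval −0.37 to 0.15, adjusted p = 0.456 by limma). Smad5 was at 13.4 and 12.4 FPKM in the siScr samples and at 12.5 and 12.4 FPKM in the siZBP1 samples (log2 fold change −0.04, SE 0.06, 95% interval −0.21 to 0.13, adjusted p = 0.664 by limma). The groups overlapped for both genes, and a fall of Smad1 as large as that of Smad6 lies outside its interval. The level of Smad6 was 0.625 and 0.526 times that of Smad1 in the siScr samples and 0.284 and 0.304 times in the siZBP1 samples. The table measures messenger RNA and says nothing of the phosphorylation through which these SMADs act.

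**Figure D3:**
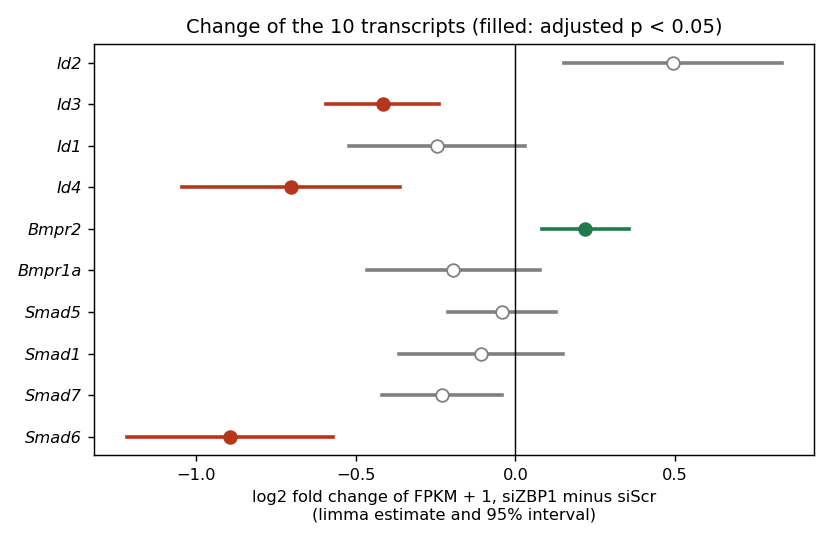
Log2 fold change (siZBP1 minus siScr, on log2(FPKM + 1)) of the 10 genes by limma, with 95% intervals that are not adjusted for the number of genes; red filled points were lower and green filled points higher at an adjusted p under 0.05, and open points did not pass. Smad6 (−0.89), Id4 (−0.70) and Id3 (−0.42) lie to the left and Bmpr2 (0.22) to the right of 0.

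By the 1.5-fold ratio of group means, 2 of the 10 genes were lower (Smad6 and Id4) and none was higher, beside 13.8% lower and 10.7% higher among the 16281 genes with both means above 0. Under the same rule limited to genes with a mean of at least 1 FPKM, 8.73% were lower and 4.24% higher. In 8 of the 10 genes the groups did not overlap, lower in 6 and higher in 2. Of all genes with a mean of at least 1 FPKM, 33.7% were separated with siZBP1 lower and 34.7% with siZBP1 higher, 68.4% in all, so that separate groups alone said little in these 4 samples.

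The rest of the pathway was described with 8 lists of genes, which overlap in a few members. Their counts, and those of the cell type lists below, stand beside 14.8% lower and 13.5% higher among all genes tested. Of 14 BMP ligands only 3 reached the filter, and Bmp4 fell. Bmp4 was at 5.59 and 6.52 FPKM in the siScr samples and at 0.797 and 0.832 FPKM in the siZBP1 samples, 7.43-fold lower (log2 fold change −1.96, SE 0.11, adjusted p = 0.00284 by limma). Like Id4, it was above the filter only through the siScr samples. Bmp5 (log2 fold change 0.56, adjusted p = 0.0572) and Bmp8a did not pass, which placed the median of the 3 at 0.32. Bmp2, picked out after its values were seen, was below the filter at 1.24 and 1.23 FPKM in siScr and at 0.170 and 0.419 FPKM in siZBP1 samples, and was not tested.

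Of 20 secreted antagonists and related binding proteins, 13 were tested, 5 fell and 1 rose, and the 13 log2 fold changes had their median at −0.31. Among those that fell, 1 was above the filter only through the siScr samples. Fst, whose product follistatin binds activins and some BMPs, fell from 16.2 ± 1.68 to 4.77 ± 0.0800 FPKM (log2 fold change −1.57, adjusted p = 0.00278). Fstl1 fell from 195 ± 14.2 to 95.2 ± 5.26 FPKM (log2 fold change −1.03). Nbl1 and Fstl3 also fell, and Htra1, a secreted protease, was the one that rose (log2 fold change 0.98).

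Of 12 other BMP receptors and co-receptors, 8 were tested, 3 fell and 1 rose, with a median of −0.17. Neo1, which encodes neogenin, a receptor for repulsive guidance molecules, fell from 23.3 ± 1.30 to 9.33 ± 1.25 FPKM (log2 fold change −1.24, adjusted p = 0.00469 by limma). Tgfbr3 (log2 fold change −0.59) and Eng (−0.34), both co-receptors, also fell, while Rgmb, a BMP co-receptor that binds neogenin, rose (log2 fold change 0.43, adjusted p = 0.0151). Acvr1, another type I receptor gene and chosen after its values were seen, was at 23.9 and 23.6 FPKM in siScr and at 24.6 and 22.8 FPKM in siZBP1 samples.

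Of the 4 other SMADs, Smad2, Smad3 and Smad4 were tested and none passed, with log2 fold changes between −0.03 and 0.18. Smad3 was the 1 gene of them with an unadjusted p under 0.05 (log2 fold change 0.18, adjusted p = 0.0691 by limma). Smad9, picked out after its values were seen, was below the filter and was not tested. Its levels were 1.07 and 0.767 FPKM in siScr and 0.293 and 0.411 FPKM in siZBP1 samples. Of 19 regulators of SMADs, 18 were tested, 4 fell and 3 rose, with a median of −0.06. Ctdspl, a phosphatase, fell from 4.26 ± 0.352 to 1.43 ± 0.178 FPKM (log2 fold change −1.12). Smurf2, a ubiquitin ligase that targets SMADs and their receptors, fell from 53.2 ± 4.65 to 27.3 ± 0.171 FPKM (log2 fold change −0.94, adjusted p = 0.00399 by limma), and the corepressor gene Ski fell by 0.34 on the log2 scale.

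Of 18 other genes known as BMP targets, 9 were tested, of which 7 fell and none rose, with a median of −1.16. Sp7, which encodes the osteoblast factor osterix, fell from 28.8 ± 8.25 to 3.57 ± 0.347 FPKM (log2 fold change −2.68, SE 0.20, adjusted p = 0.00401 by limma). Dlx5, a homeobox gene, fell by 1.39 and Atoh8, a bHLH gene, by 1.33 on the log2 scale. The other 4 that fell were Tcf7, Dlx6, Runx2 and Snai2, and Msx2 and Bambi did not pass. Dlx6, Msx2 and Bambi were above the filter only through the siScr samples, so that the count and the median of this list lean towards falls. Sp7 and Runx2 are also in the list of osteoblast markers, and Dlx5 too acts in the osteoblast lineage. The paper reports less β-catenin, which carries Wnt signals, at the promoters of Runx2 and Sp7 in ZBP1-depleted cells treated with Wnt3a. It also lists Tcf7 among the lowered genes of Wnt signalling. Through which pathway the genes of this list fell was not tested.

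Of 18 bHLH and ETS factors that ID proteins bind or oppose, 13 were tested, 3 fell and 1 rose, with a median of −0.11. Tcf4, which encodes an E protein that ID proteins bind, rose from 29.6 ± 0.896 to 43.1 ± 1.07 FPKM (log2 fold change 0.53, adjusted p = 0.00532 by limma), while the other E protein genes Tcf3 and Tcf12 had log2 fold changes of −0.11 and −0.17 and did not pass. Scx, a tendon bHLH gene, fell by 1.22, Hes1 by 0.73 and Elk1, an ETS gene, by 0.49 on the log2 scale.

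The TGF-β and activin branch was listed for comparison, and 8 of its 9 genes were tested, with 4 lower, 1 higher and a median of −0.43. Its target gene Ctgf (342 ± 27.0 to 126 ± 9.39 FPKM) fell by 1.44 on the log2 scale, and Tgfb1i1 fell by 1.41. The type II receptor gene Tgfbr2 fell by 0.92, and the type I receptor gene Tgfbr1 rose (log2 fold change 0.28).

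**Figure D4:**
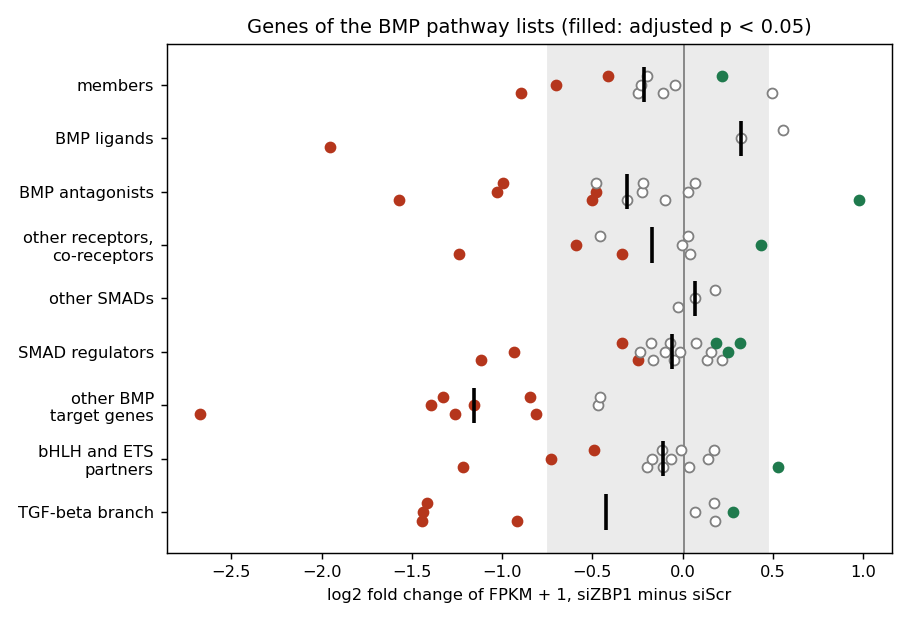
Log2 fold change (siZBP1 minus siScr, on log2(FPKM + 1)) of each tested gene among the 10 members (top row) and in the 8 pathway lists; filled red and green points were lower and higher at an adjusted p under 0.05 by limma, open points did not pass, black bars are list medians, and the grey band spans the 5th to 95th percentile of all genes tested (−0.75 to 0.47). The list of other BMP targets, which shares genes with the osteoblast markers, has its median at −1.16. The median of the SMAD regulators is −0.06.

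The 34 pathway genes called here depended on single samples in part. Without siScr replicate 1, 23 of them were past the threshold, without siScr replicate 2 there were 29, without siZBP1 replicate 1 there was 1 and without siZBP1 replicate 2 there were 8, and none changed sign. Without siZBP1 replicate 1 the share of all tested genes called lower was 0.402%, and without siZBP1 replicate 2 it was 0.944%, so that calls of all kinds were few with a single depleted sample.

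Markers of several cell types differed between the same samples. Of 19 macrophage markers found, all were tested, 13 rose and none fell, and their summed level was 11041 and 12195 FPKM in the siScr samples and 17330 and 16451 FPKM in the siZBP1 samples. Lyz2, a lysozyme gene of myeloid cells, was at 2814 and 3647 FPKM in siScr and at 5871 and 5402 FPKM in siZBP1 samples, and C1qb, a complement gene of macrophages, at 1130 and 1145 against 1609 and 1570 FPKM. Ptprc, the pan-leukocyte gene CD45, was at 76.6 and 76.8 against 82.7 and 88.0 FPKM and did not pass. These markers were thus abundant in all 4 samples labelled as mesenchymal stem/progenitor cells.

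Of 16 mesenchymal stromal markers, 15 were tested, 7 fell and 1 rose, with a sum of 7429 and 6198 FPKM in siScr and 4095 and 4153 FPKM in siZBP1 samples. Col1a1 fell from 2793 ± 386 to 1160 ± 44.6 FPKM, while Col1a2 (1949 ± 202 and 1820.0 ± 13.2 FPKM) did not pass. Postn fell from 1376 ± 142 to 590 ± 17.8 FPKM and Dcn from 16.6 ± 3.91 to 4.37 ± 0.743 FPKM. Cxcl12, a chemokine gene of marrow stroma (68.4 and 54.6 against 8.06 and 7.71 FPKM), was also among the 7 that fell. So was Prrx1 (51.6 and 43.5 against 23.2 and 23.1 FPKM). Nt5e, which encodes CD73, was the one that rose, from 2.73 and 5.48 to 20.8 and 21.3 FPKM (log2 fold change 2.16, adjusted p = 0.00954 by limma). Ly6a, at 156 to 254 FPKM, and Pdgfrb, at 32.0 to 46.2 FPKM, were abundant in every sample, whereas Pdgfra, at 3.97 and 2.36 FPKM in siScr and 1.72 and 1.31 FPKM in siZBP1 samples, and Lepr, at 1.28 FPKM or less in every sample, were low. All 8 osteoblast markers tested of 10 fell, with a sum of 3489 and 2863 against 1197 and 1256 FPKM, Bglap above the filter only through the siScr samples, and Alpl, the alkaline phosphatase gene of osteoblasts, fell 8.22-fold. Of 9 smooth muscle and pericyte markers, 6 were tested and 5 fell, Acta2 from 623 ± 12.4 to 120 ± 13.0 FPKM and Tagln from 308 ± 12.3 to 45.6 ± 5.04 FPKM among them, with a sum of 1135 and 1160 against 179 and 207 FPKM. Cspg4 of this list was above the filter only through the siScr samples.

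Of 9 adipocyte markers, 6 were tested, 3 fell (Plin4 14.8-fold, Cd36 1.72-fold and Pparg 1.52-fold lower) and 1 rose (Lpl, 1.19-fold), and the defining markers Plin1 and Cidec were at 0 in all samples. Of 7 chondrocyte markers, 3 were tested and 1 fell (Col2a1). Plin4 and Col2a1 were above the filter only through the siScr samples. Of 10 endothelial markers, 2 were tested (Vwf and Kdr) and neither passed, and the sum was 10.9 to 11.6 FPKM. Lymphoid and erythroid markers summed to at most 0.263 FPKM in any sample, and Hbb-bs was at 0. In bulk samples, fewer cells of a type and less RNA of a gene per cell cannot be told apart, and the part of these shifts in the differences of Smad6, Id3, Id4, Id2 and Bmpr2 was not tested.

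The plot of adjusted p by setting shows how far Smad6, Id4, Id3, Bmpr2 and Id2 depended on the choices made. Smad6 and Id3 were past the threshold in all 11 alternatives that used all samples, and Id4 in all 10 in which it could be tested. Bmpr2 was past it in 8 of 11 and Id2 in 5 of 11, and Id1, Smad7, Bmpr1a, Smad1 and Smad5 in none.

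**Figure D5:**
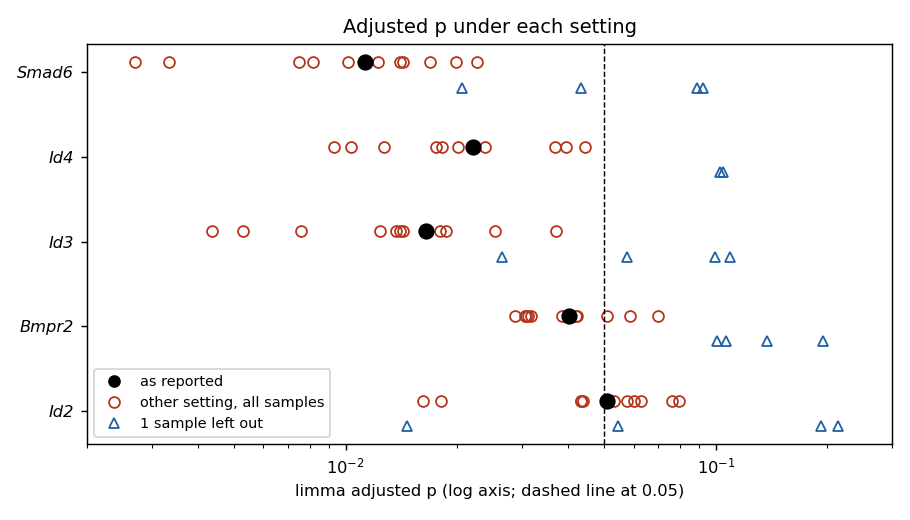
Adjusted p by limma of Smad6, Id4, Id3, Bmpr2 and Id2 on a log axis, with a dashed line at 0.05. Black points are the values as reported, red circles are other settings that used all samples, and blue triangles are fits without 1 sample. Smad6, Id3 and Id4 stay under 0.05 in every setting with all samples, and no gene does in every fit without 1 sample.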

How the data were processed

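RNA-seq libraries of 4 mBMSC samples (siScr and siZBP1, n = 2 each) were made by the authors with a TruSeq kit and mapped with TopHat to mm10. The deposited values are FPKM per gene and sample. The methods name HTSeq as the source of these values, whereas the submitters' processing notes list Cufflinks, and the annotation is not given in the sources used here. The table also holds group means by the authors, which equalled the replicate means and were used for that check only. In 27 rows a spreadsheet had turned the symbol into a date.

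Log2(FPKM + 1) was fitted with limma 3.58.1 (R 4.3.3) with a variance trend for genes with a mean of at least 1 FPKM, tested on simulated data first, with Benjamini-Hochberg adjustment. Samples were grouped by their labels. Promoters came from RefSeq (GRCm38.p6), and gene positions from GENCODE release M21 on GRCm38. Python 3.11.15, pandas 2.3.3, numpy 2.4.6 and matplotlib 3.10.9 were used. Alternatives changed the pseudocount, the filter, the scaling, the variance model, the replicate block and the samples.

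The members and lists were chosen with earlier results of these data known. Named were the 10 members, Zbp1, up to 3 called genes with the largest change per pathway list, the 2 most abundant genes per cell type list and the 4 nearest to Smad6. Genes outside this rule (the other called genes of the lists, and list genes given with values that did not pass) were named after their values were seen. Depth was estimated only roughly from the spacing of low values, and no counting error was computed. Some genes that this rule names are not reported here.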

Additional observations from a re-analysis of the deposited data

How the results depend on the processing

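The direction of Smad6, Id3, Id4, Id2, Bmpr2, Id1, Smad7 and Bmpr1a was the same in every alternative run in which the gene was tested. With 1 sample left out, the log2 fold change of Smad1 ranged from −0.228 to 0.0105 (above 0 without siZBP1 replicate 2), of Smad5 from −0.0945 to 0.00911 (above 0 without siScr replicate 1), of Col1a2 from −0.201 to 0.0111 (above 0 without siScr replicate 1) and of Vwf from −0.206 to 0.0507 (above 0 without siScr replicate 2). The cause was not tested. Of the 10 genes, 2 rose (Bmpr2 and Id2) with a pseudocount of 0.1, a mean of at least 5 FPKM, median scaling or without small RNA genes, and 0 rose with no filter or no variance trend. With 1 sample left out, 0 to 2 of the 10 genes were called lower and 0 to 1 higher, beside 48 to 1467 lower and 22 to 1248 higher among all genes. The lone remaining sample of a group was there assumed to vary like the other group. By ratio of means over 1.5-fold, 867 genes were lower and 365 higher with 1 added to both means, and 1035 and 503 with a mean of at least 1 FPKM. With 1 sample left out, 0 to 1 of the 10 genes exceeded 1.5-fold higher, the 1 being Id2 without siScr replicate 2.

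With the replicate number as a block, 1654 genes were lower and 1465 higher, and 3 of the 10 genes were lower and 1 higher. Id2 then passed (adjusted p = 0.0162 by limma) and Bmpr2 did not (adjusted p = 0.0585). The correlation over 11959 genes of the deviations of samples with the same number was −0.0630, so that the numbers were not taken as pairs. Family sums were also computed from TPM and with 1 sample left out, alternatives chosen after seeing the data, and the ratio of the inhibitory SMADs stayed between 0.623 and 0.682. Read numbers are not given, and Id4 is the gene whose low level limits its precision most.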
